A study of Danio rerio with 12 samples.

Results

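This account compares zebrafish embryos labelled Mycn mutant with wild-type embryos of strain AB at 72 hours post fertilization (hpf), across every gene of the deposited count table. It uses 6 of the series' 12 libraries: 3 of wild-type and 3 of mutant-labelled embryos, chosen by age and genotype as the labels give them. The other 6 libraries, 3 of each genotype at 48 hpf, are set beside them in the closing paragraphs. All embryos were raised in Danieau buffer with no other treatment named, total RNA was taken with TRIzol, and the tissue is labelled as embryonic cells. The sources used here do not give the mutant allele, its zygosity, whether mutants and AB embryos share parents, or how many embryos went into a library. Mutant and wild type are therefore also different strain labels, and genotype and line background cannot be told apart.

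Mycn is a transcription factor of the Myc family. It binds DNA together with Max and is best known for raising the transcription of genes for ribosomes, protein synthesis, nucleotide supply and cell division. In people, loss of a working MYCN copy causes Feingold syndrome, in which segments of the gut can be closed at birth, and the study's title joins the gut to ribosome production. At 72 hpf the zebrafish gut tube has opened and its cells are becoming absorptive enterocytes, mucus-secreting goblet cells and hormone cells, while liver and pancreas beside it start to work.

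Of 31465 genes in the table, 20182 had enough counts to be tested. Levels are given in CPM, counts scaled to library size after TMM scaling of the 6 libraries, in the order of replicates 1, 2 and 3. Differences are log2 fold changes of mutant-labelled over wild type ± their standard error (SE) from edgeR's quasi-likelihood test, and a gene is called at a Benjamini-Hochberg adjusted p under 0.05 over all tested genes. By this rule 793 genes changed, which is 3.93% of those tested: 329 rose (1.63%) and 464 fell (2.30%) with the mutant label. DESeq2 called 3.77% of the genes it tested (1.56% higher, 2.21% lower), limma-voom called 3.84% (1.59% higher, 2.25% lower), and an unadjusted p under 0.05 was met by 7.93% in the upward and 7.88% in the downward direction. The libraries of the genotypes did not overlap in 4126 tested genes (20.4%), among them 782 of the 793 called. Lack of overlap in a called gene, as described below, therefore adds no support of its own. Library totals ran from 14793715 to 17520842 counts, and the biological coefficient of variation was 0.0700 within wild type and 0.0838 within the mutant-labelled group. The first principal component held 35.2% of the variance and separated the genotypes. The second held 19.1% and set mutant-labelled replicate 1 (score -22.3) apart from replicate 3 (18.5). Leaving out a library lowered the count of called genes most for wild-type replicate 2 (437 genes) and mutant-labelled replicate 3 (515 genes), and 339 genes kept their call without each of the 6 libraries in turn. A gene described singly below is among these 339 unless a library whose removal ends its call is named beside it.

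The targeted gene was checked before the others. mycn (ENSDARG00000006837) stood at 87.5, 86.6 and 91.3 CPM in the wild-type libraries and 179.8, 179 and 161 CPM in the mutant-labelled libraries. Every mutant-labelled library lay above every wild-type library, and the RNA was 1.96-fold higher (log2 fold change 0.97 ± 0.07, adjusted p = 4.77e-07). A lowered level was thus not seen, so these counts do not tell from the transcript that the gene was disabled, and each direction below rests on the genotype labels. Other Myc genes were not called: mycb had 35.9, 35.7 and 32.7 CPM against 38.3, 33.9 and 40.7 CPM (log2 fold change 0.11, adjusted p = 0.578), and mych had 39.5, 34.7 and 29.7 CPM against 37.7, 41.5 and 43.6 CPM (log2 fold change 0.24, adjusted p = 0.217). max, which encodes the common partner of Myc proteins, had 186, 194 and 198 CPM against 189, 195 and 197 CPM (log2 fold change 0.01, adjusted p = 0.974). These 3 were picked for their roles, outside the rule for named genes. Of 18 tested genes of the Myc, Max and Mxd network, mycn was the member that was called.

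Genes of the intestinal brush border fell with the mutant label. Of 43 tested genes for proteins of the enterocyte brush border, the carpet of microvilli that digests and absorbs food, 20 fell and none rose, a share of 46.5% against 2.30% over all tested genes. Their median log2 fold change was -0.49, beside 0.00 over all genes. At an unadjusted p under 0.05 there were 28 lower and 4 higher, DESeq2 and limma-voom each called 18 lower and none higher, and 16 of the 20 calls held without each library in turn. Here and for every other tissue list, fewer cells of a type and less RNA per cell cannot be told apart in RNA from whole embryos. The list's mean level by library was 0.174, 0.280 and 0.200 in wild type and -0.229, -0.233 and -0.193 in the mutant-labelled group, in log2 units about each gene's mean, so the genotypes did not overlap. Such mean levels were also apart for some lists with no called member, among them polyamine synthesis, so this alone does not set a list off.

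Members other than peptidases and transporters are given first. vil1, which encodes villin, the actin bundler of microvilli, had 161, 177 and 171 CPM in the wild-type libraries and 103, 104 and 95.3 CPM in the mutant-labelled libraries (log2 fold change -0.75 ± 0.07, adjusted p = 4.42e-06). cldn15la, a claudin whose promoter is used to mark zebrafish enterocytes, had 59.5, 66.04 and 60.6 CPM against 25.5, 24.2 and 25.03 CPM (log2 fold change -1.32 ± 0.08, adjusted p = 7.13e-08). In both genes the replicates of a genotype lay close together and the genotypes were well apart. For cldn15la non-overlap was a condition of its naming. s100a10a, an S100 family member that partners annexin A2, fell from 53.2, 52 and 48.98 CPM to 18.04, 21.2 and 23.5 CPM (log2 fold change -1.30, adjusted p = 4.13e-07). muc13b, a membrane mucin, fell from 23.9, 27.8 and 23.5 CPM to 10.95, 9.65 and 10.8 CPM (log2 fold change -1.26, adjusted p = 1.24e-06). lgals2b, a galectin, fell from 246, 254 and 238 CPM to 133, 139 and 144 CPM (log2 fold change -0.83, adjusted p = 1.24e-06). Each of these 3 genes was lower in all mutant-labelled libraries than in any wild-type library, which for s100a10a and muc13b was a condition of their naming. ush1c, which encodes harmonin of the links between microvilli, and eps8l3b, a regulator of their actin core, fell by 0.88 and 0.83 on the log2 scale.

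Peptidases and transporters of the same membrane fell with them. anpepb, an aminopeptidase N gene, stood at 53.6, 67.3 and 51.9 CPM in the wild-type libraries and 22.96, 24.4 and 25.97 CPM in the mutant-labelled libraries (log2 fold change -1.24 ± 0.10, adjusted p = 9.64e-07). slc6a19a.2, a carrier for neutral amino acids, stood at 23.4, 22.4 and 19.9 CPM against 10.3, 9.53 and 9.49 CPM (log2 fold change -1.16 ± 0.10, adjusted p = 3.09e-06). In both genes the highest mutant-labelled library was far below the lowest wild-type library. The peptidase genes enpep, dpp4 and anpepa had log2 fold changes of -0.91, -0.92 and -1.05, and slc7a9, a subunit of the cystine carrier, had -1.25. alpi.2, an intestinal alkaline phosphatase, had -1.21, a call that missed the threshold without wild-type replicate 3 (adjusted p = 0.0595). Not every member fell: mep1a.1, a meprin subunit, had a log2 fold change of 0.78 (adjusted p = 0.192). slc6a19a.1, the neighbouring copy of the amino acid carrier, had 0.51 (adjusted p = 0.179). mep1a.2, next to mep1a.1 on the chromosome of mycn, was called lower at -1.48. Its call was lost on leaving out any single library (adjusted p = 0.222 without wild-type replicate 2). vil1, slc6a19a.2 and the members named by log2 fold change alone were chosen after their values were seen.

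**Figure D1:**
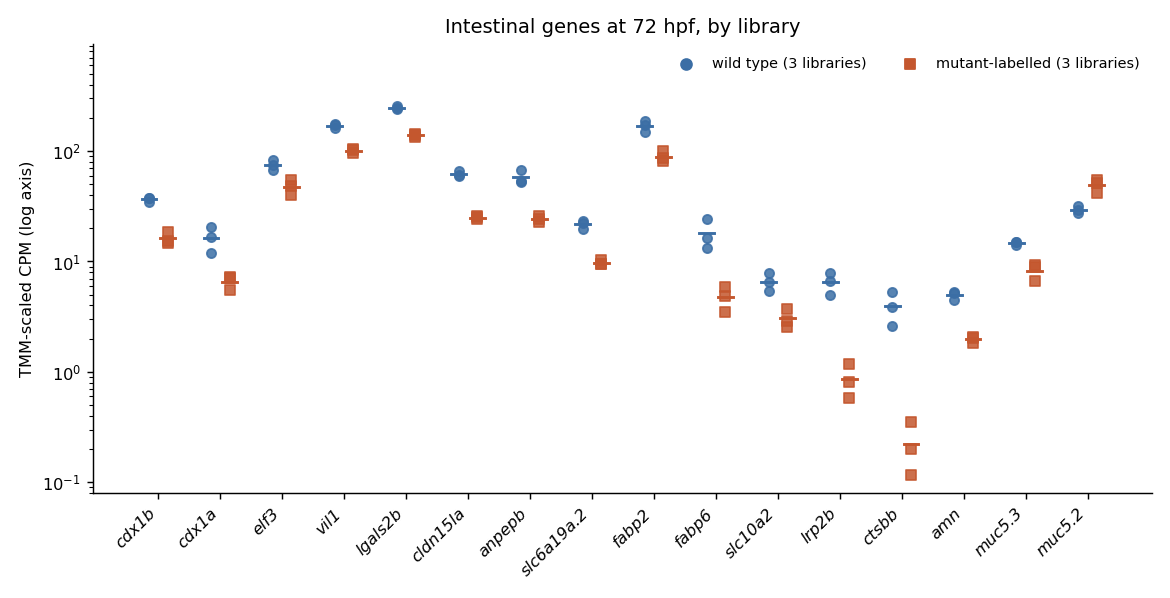
Level of 16 genes from the intestinal and mucus lists in whole embryos at 72 hpf, in TMM-scaled CPM on a log axis. Each point is a library and each short line the mean of 3. In 15 of the genes all 3 mutant-labelled libraries lie below all wild-type libraries, and in muc5.2 they lie above. Some of the genes were chosen after their values were seen or under a rule that required non-overlap.

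Transcription factors of the endoderm and intestine also held genes that fell. Of 28 tested, 6 fell and none rose (21.4% lower), with a median of -0.31; 13 were lower and none higher at an unadjusted p under 0.05, and DESeq2 and limma-voom each called 6 lower. cdx1b, a caudal homeobox gene of the gut lining, had 34.2, 37.4 and 37.7 CPM in the wild-type libraries and 15.5, 18.5 and 14.6 CPM in the mutant-labelled libraries (log2 fold change -1.17 ± 0.10, adjusted p = 1.24e-06). Its paralogue cdx1a had 11.97, 20.5 and 16.7 CPM against 7.03, 7.19 and 5.52 CPM (log2 fold change -1.31 ± 0.17, adjusted p = 0.000177), where non-overlap was a condition of its naming. elf3, an ETS factor of epithelia, went from 82.2, 75.02 and 66.8 CPM to 55, 48.2 and 39.7 CPM (log2 fold change -0.65 ± 0.10, adjusted p = 0.00102). The nuclear receptor gene hnf4a fell by 0.58 and the homeobox gene hnf1ba by 0.48 on the log2 scale, and hnf4g by 0.88. These calls were less secure: without wild-type replicate 2 the adjusted p was 0.0635 for hnf4a, 0.0851 for hnf1ba and 0.103 for hnf4g, and the list then held 3 lower genes. creb3l3a and creb3l3b, factors of lipid handling, had log2 fold changes of -0.51 and -0.50 with adjusted p of 0.548 and 0.369.

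Gut genes for handling fat and bile acids changed in both directions. The list of 36 held 3 higher and 7 lower genes (8.33% and 19.4%) and a median of -0.02. fabp6, the bile acid carrier inside ileal cells, had 13.4, 24.1 and 16.4 CPM in the wild-type libraries and 3.51, 4.86 and 5.92 CPM in the mutant-labelled libraries (log2 fold change -1.92 ± 0.21, adjusted p = 1.94e-05). slc10a2, the transporter that brings bile acids into those cells, had 5.38, 6.48 and 7.81 CPM against 2.87, 2.57 and 3.70 CPM (log2 fold change -1.11 ± 0.19, adjusted p = 0.00236). The wild-type libraries differed among themselves more for these genes than for vil1. None reached down to the mutant-labelled level, which for fabp6 was a condition of its naming. fabp2, the intestinal fatty acid carrier, went from 148, 186 and 172 CPM to 86.2, 80.9 and 100.2 CPM (log2 fold change -0.92, adjusted p = 9.98e-06). fabp1b.1, another fatty acid carrier, went from 131, 142 and 109.7 CPM to 69.2, 74.2 and 64.4 CPM (log2 fold change -0.88, adjusted p = 1.09e-05). NPC1L1, which takes up dietary cholesterol and is not on the list, went from 7.98, 11.8 and 10.7 CPM to 4.10, 4.50 and 4.24 CPM (log2 fold change -1.24, adjusted p = 0.000176). mogat2, an enzyme of fat reassembly, had a log2 fold change of -0.66, not called without wild-type replicate 2 (adjusted p = 0.0807). The 3 higher genes were abca1b, a cholesterol exporter of many tissues (72.3, 83.4 and 67.6 CPM against 100.2, 105 and 104 CPM, log2 fold change 0.47, adjusted p = 0.00169), and the apolipoprotein genes apoa4b.1 (0.37) and apoeb (0.34), which are also made by liver and yolk cells. Without wild-type replicate 3 the apolipoprotein calls were lost, with adjusted p of 0.0985 and 0.132, and without wild-type replicate 2 the list held 4 lower genes. slc10a2 and mogat2 were chosen after their values were seen.

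The lysosome-rich enterocytes of the mid gut take up whole protein by endocytosis and digest it inside the cell. Of 29 tested genes of this machinery 6 fell and none rose (20.7% lower), and the median was -0.02; at an unadjusted p under 0.05 there were 8 lower and 2 higher, with 5 lower and 1 higher in DESeq2 and 5 lower in limma-voom. lrp2b, a megalin receptor, had 4.97, 7.89 and 6.71 CPM in the wild-type libraries and 1.17, 0.585 and 0.807 CPM in the mutant-labelled libraries (log2 fold change -2.91 ± 0.27, adjusted p = 3.49e-06). amn, which anchors the cubilin receptor in the membrane, had 4.45, 5.26 and 5.23 CPM against 1.82, 2.05 and 2.09 CPM (log2 fold change -1.33 ± 0.20, adjusted p = 0.00055). ctsbb, a cathepsin B protease, had 3.88, 5.32 and 2.58 CPM against 0.117, 0.351 and 0.202 CPM (log2 fold change -4.08 ± 0.41, adjusted p = 1.01e-05) and lies on the same chromosome as mycn. In these 3 genes each mutant-labelled library lay well under each wild-type library. ctsbb rested on few counts in the mutant-labelled libraries, where 3 counts were worth 0.175 to 0.202 CPM, so the size of its fall is uncertain. The remaining calls were ctsl.1, a cathepsin L, pllp, an endosomal membrane protein of gut cells in zebrafish, and cubn, cubilin itself. Their log2 fold changes were -0.81, -0.52 and -0.46, and without wild-type replicate 2 their adjusted p was 0.0535, 0.106 and 0.184, which left 3 lower genes in the list. The lysosomal enzymes glb1 and naga had 0.25 (adjusted p = 0.326) and -0.34 (adjusted p = 0.234).

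Secretory and hormone cell lists held genes that fell and genes that rose. Of 12 tested goblet cell and mucus genes 1 rose and 2 fell (8.33% and 16.7%, beside 1.63% and 2.30% over all genes), with a median of -0.20. The list's mean level was 0.073 to 0.094 in wild type and -0.202 to 0.042 in the mutant-labelled group. muc5.2 and muc5.3, both genes of secreted gel-forming mucins, moved in opposite directions: muc5.2 from 27.4, 31.9 and 28.98 CPM to 42.1, 50.9 and 54.2 CPM (log2 fold change 0.74 ± 0.09, adjusted p = 0.00015) and muc5.3 from 15.04, 14.04 and 15.01 CPM to 6.62, 9.24 and 8.95 CPM (log2 fold change -0.83 ± 0.13, adjusted p = 0.000911). The genotypes did not overlap in either. Among 38 tested gut and islet hormone genes, 5 fell and 1 rose (13.2% and 2.63%), the median was -0.01, the mean level was 0.043 to 0.133 in wild type and -0.132 to -0.041 in the mutant-labelled group, and 3 lower genes were left without wild-type replicate 1 or 2 or mutant-labelled replicate 2. insl5a, an insulin-like peptide of hindgut hormone cells, had 1.45, 1.73 and 1.72 CPM against 0.176, 0.468 and 0.269 CPM (log2 fold change -2.39 ± 0.40, adjusted p = 0.00162). The mutant-labelled values rest on few counts, with 3 counts worth 0.175 to 0.202 CPM there, so the size of this fall is uncertain. pdx1, a homeobox gene of pancreas and duodenum, fell by 0.71, a call lost without wild-type replicate 2 (adjusted p = 0.0558). pyyb, a peptide YY gene, fell by 0.80, lost without wild-type replicate 3 (adjusted p = 0.164). An entry of scg5 (ENSDARG00000077045) fell, at mean levels of 1.88 against 0.271 CPM. The sum over both copies of scg5 was level, at 19.5 ± 1.39 CPM against 20.5 ± 1.37 (SD, n = 3), so the entry is uncertain. The higher gene, chga, on the chromosome of mycn, was not called without mutant-labelled replicate 3 (adjusted p = 0.1525). Of the 6 calls, those of insl5a and the scg5 entry held without each library.

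The layers around the epithelium were also examined. Of 12 tested visceral smooth muscle genes 2 fell and none rose (16.7% lower against 2.30% over all genes). The median was -0.09, and 0.005 without wild-type replicate 2, and 5 members had positive log2 fold changes. acta2, the smooth muscle actin, fell from 101, 106 and 114 CPM to 89.2, 77.97 and 79.7 CPM (log2 fold change -0.38, adjusted p = 0.0063). tagln, transgelin, fell from 23.9, 22.8 and 23.1 CPM to 17.3, 18.02 and 14.9 CPM (log2 fold change -0.47, adjusted p = 0.00789). None of 18 enteric nervous system genes was called by edgeR, DESeq2 or limma-voom, with unadjusted p under 0.05 for 5 higher and 3 lower genes. Claudins, the seal between epithelial cells, gave 4 lower and 1 higher of 30 (13.3% and 3.33%), with a median of -0.005. Of the 4 lower, cldn15la and cldn15lb are also counted in the brush border list. cldn15a, which in zebrafish is needed for a single gut lumen, went from 21.2, 20.8 and 15.9 CPM to 9.49, 9.94 and 11.4 CPM (log2 fold change -0.91 ± 0.13, adjusted p = 0.000275). cldnc went from 63.7, 61.2 and 58.1 CPM to 39.7, 45.3 and 41.6 CPM (log2 fold change -0.53, adjusted p = 0.000347) and cldn15lb from 16.4, 17.4 and 19.2 CPM to 10.8, 11.1 and 10.9 CPM (log2 fold change -0.69, adjusted p = 0.000695). The higher member, cldn23a, was not called without wild-type replicate 2 (adjusted p = 0.190).

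The accessory organs went different ways. Of 23 tested digestive enzyme genes of the exocrine pancreas 7 fell and none rose (30.4% lower), with 14 lower and 1 higher at an unadjusted p under 0.05, and 22 of the 23 had negative log2 fold changes (median -0.34). prss59.1, a trypsin gene, had 43.2, 36.5 and 36.7 CPM in the wild-type libraries and 30.99, 21.1 and 21.3 CPM in the mutant-labelled libraries (log2 fold change -0.66 ± 0.12, adjusted p = 0.00392). prss1, another trypsin, had 139.9, 114 and 94.8 CPM against 95.7, 73.5 and 66.5 CPM (log2 fold change -0.56 ± 0.13, adjusted p = 0.0169), where mutant-labelled replicate 1 reached into the wild-type range. The list varied strongly within genotypes: its mean level was 0.342, 0.158 and -0.014 in wild type and 0.041, -0.285 and -0.242 in the mutant-labelled group, so the groups overlapped. Leaving out 1 library moved the count of lower genes from 7 to 1 (without wild-type replicate 1 or mutant-labelled replicate 3), 2 (mutant-labelled replicate 2), 3 (wild-type replicate 2) or 10 (mutant-labelled replicate 1). prss59.1 was the member that kept its call in each of these reduced sets, and the tools DESeq2 and limma-voom had 5 and 7 lower members, none higher. A model of all 12 libraries called no member of the list.

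Liver genes leaned the other way. Of 65 tested genes of hepatocyte secretion and metabolism 9 rose and 3 fell (13.8% and 4.62%), and the median was 0.17. fabp10a, the liver fatty acid carrier used to mark zebrafish hepatocytes, had 41.1, 39.5 and 33.97 CPM in the wild-type libraries and 61.2, 52.1 and 67.6 CPM in the mutant-labelled libraries (log2 fold change 0.66 ± 0.10, adjusted p = 0.000508). agxtb, an aminotransferase that handles glyoxylate, had 59.4, 65.1 and 57.6 CPM against 92.96, 89.4 and 93.9 CPM (log2 fold change 0.60 ± 0.07, adjusted p = 5.83e-05), and mat1a, which makes S-adenosylmethionine, had 128, 136 and 128 CPM against 178, 170.4 and 172 CPM (log2 fold change 0.41, adjusted p = 0.00131). In all 3 the mutant-labelled libraries were above the wild-type libraries. rbp4, the plasma retinol carrier, uox, urate oxidase, and dpys, a pyrimidine-degrading enzyme, rose by 0.46, 0.40 and 0.61. tat, tyrosine aminotransferase, fell from 14.9, 12.5 and 13.4 CPM to 7.85, 8.66 and 5.52 CPM (log2 fold change -0.88 ± 0.15, adjusted p = 0.00165), and cyp7a1, the rate-limiting enzyme of bile acid synthesis, fell by 0.72, a call lost without wild-type replicate 2 (adjusted p = 0.0762). The list's mean level overlapped between genotypes, with wild-type replicate 3 lowest at -0.197, and removing that library or mutant-labelled replicate 3 left 6 higher genes.

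Plasma protein genes followed with few calls. Of 28 tested complement genes 2 rose and 1 fell (7.14% and 3.57%, beside 1.63% and 2.30% over all genes), and 25 were positive with a median of 0.23. cfd, complement factor D, had 134, 125 and 104 CPM against 176, 169 and 175 CPM (log2 fold change 0.52 ± 0.08, adjusted p = 0.00124). c3b.2, a C3 gene, had 26.96, 29.4 and 27.9 CPM against 45.6, 35.6 and 31.9 CPM (log2 fold change 0.43, adjusted p = 0.0326), a call lost without mutant-labelled replicate 1 (adjusted p = 0.145). mbl2, the mannose-binding lectin that starts the lectin pathway, went against them, with 8.68, 8.66 and 7.57 CPM against 1.46, 2.87 and 3.43 CPM (log2 fold change -1.69 ± 0.21, adjusted p = 0.000128). The mean level of the complement list ranged from -0.336 to 0.146 over the wild-type libraries and from -0.078 to 0.220 over the mutant-labelled ones. Of 23 coagulation genes 2 rose (8.7%), f2 (prothrombin, log2 fold change 0.38, adjusted p = 0.00603) and fgg (a fibrinogen chain, log2 fold change 0.35, adjusted p = 0.0339). The fgg call was lost without wild-type replicate 3 (adjusted p = 0.178).

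**Figure D2:**
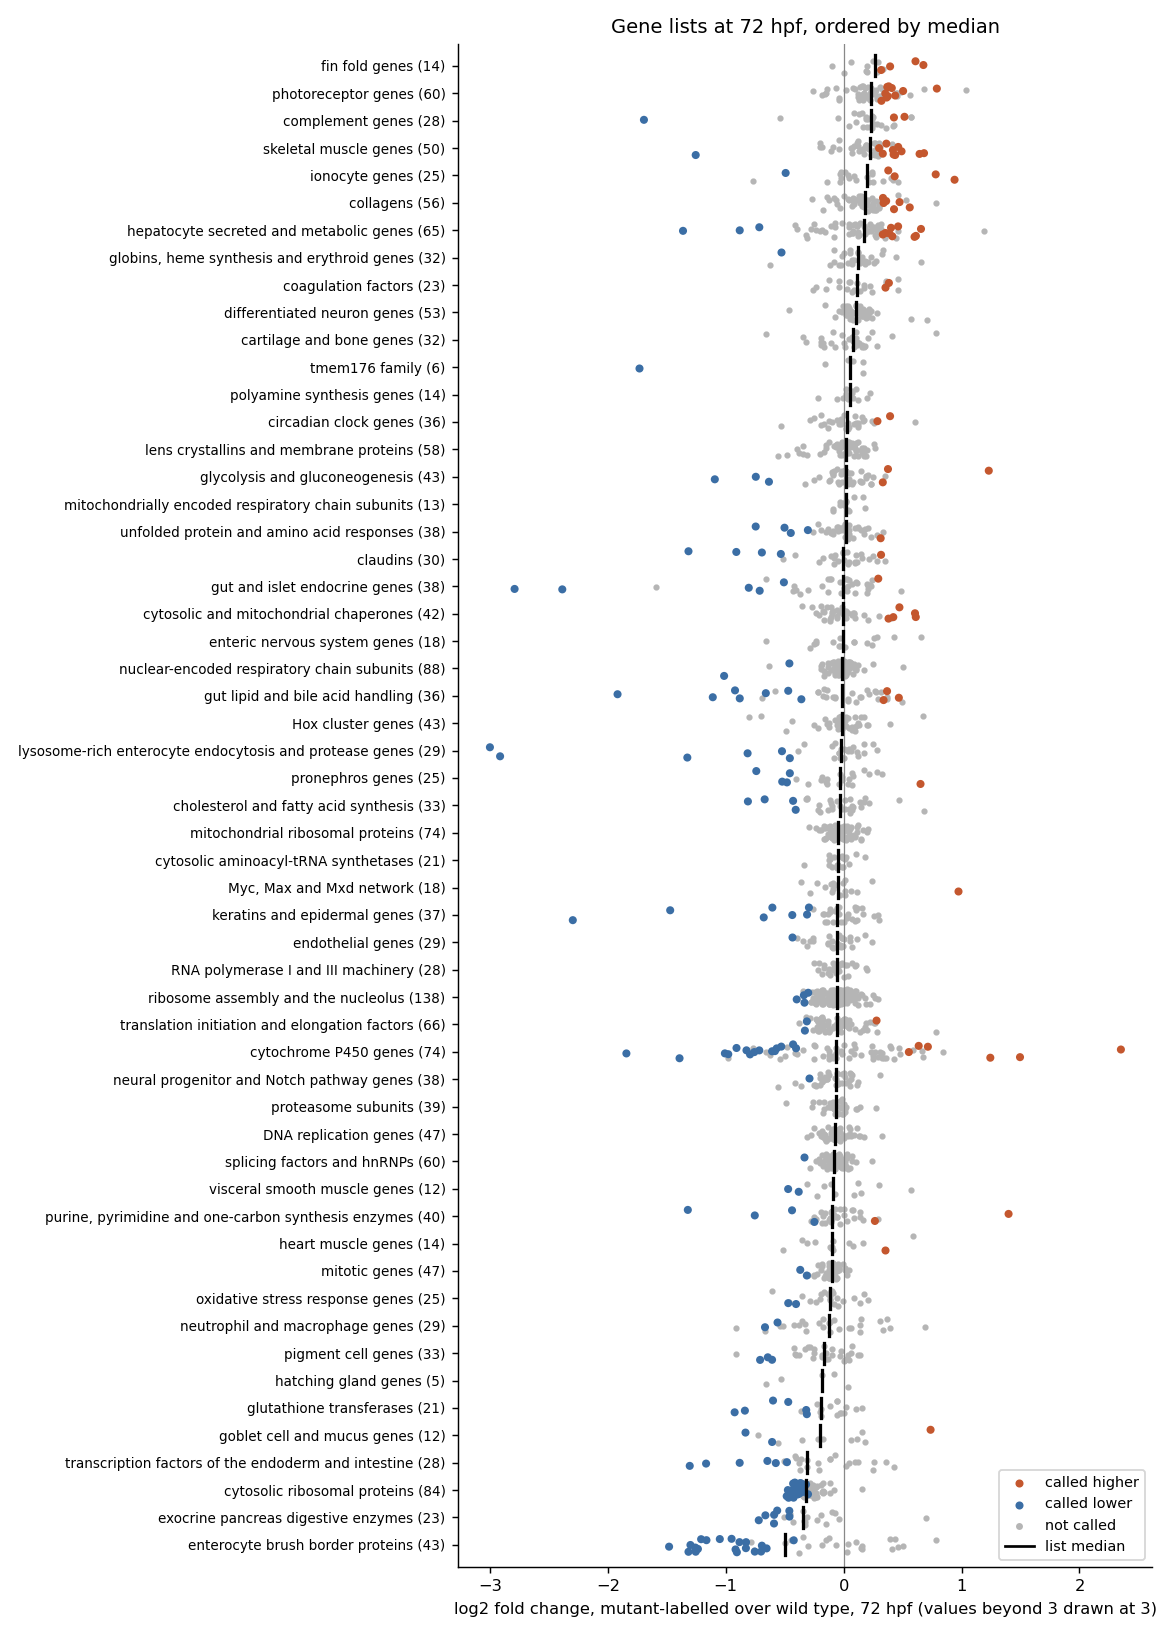
Log2 fold change at 72 hpf of every tested member of 55 gene lists, with the number tested in brackets; points are genes, coloured where called, and black bars are list medians. Brush border proteins stand lowest with a median of -0.49, and fin fold genes stand highest with 0.27. The p53 pathway list is not drawn.

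Most genes for the proteins of the cytosolic ribosome were lower by a small amount, with log2 fold changes from -0.48 to 0.16 over the list. Of 84 tested, 32 fell and none rose (38.1% lower against 2.30% of all genes), 83 had negative log2 fold changes, and the median was -0.32. At an unadjusted p under 0.05 there were 76 lower and none higher. rps14 had 1033, 973 and 919 CPM in the wild-type libraries and 731, 693 and 669.6 CPM in the mutant-labelled libraries (log2 fold change -0.48 ± 0.08, adjusted p = 0.00172). rps23 had 557, 507 and 467 CPM against 362, 389 and 358 CPM (log2 fold change -0.47 ± 0.08, adjusted p = 0.00236), and rps26 had 308, 271 and 268 CPM against 204, 209.8 and 216 CPM (log2 fold change -0.43 ± 0.07, adjusted p = 0.00241). In these 3 genes, all of the small subunit, each mutant-labelled library lay below each wild-type library. rps18 (log2 fold change -0.41, adjusted p = 0.00562) and the large-subunit gene rpl32 (log2 fold change -0.41, adjusted p = 0.00608) were the other members that kept their calls without each library.

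How many ribosomal protein genes passed the threshold depended on the test and the libraries. DESeq2 called 53 lower and limma-voom 40, and neither called any higher. A model of all 12 libraries called 2 lower, where 0.555% of all genes changed, 0.133% upward and 0.422% downward. Without wild-type replicate 1 the count was 8, without wild-type replicate 2 it was 9, and without mutant-labelled replicate 1 or 3 it was 16 or 17. The list's mean level was 0.302, 0.119 and 0.043 in wild type and -0.209, -0.107 and -0.148 in the mutant-labelled group. The genotypes were apart, as they were for some lists with no call, and wild-type replicate 1 stood above the other wild-type libraries.

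Few genes of the machinery that builds ribosomes were called. Of 138 tested genes of ribosome assembly and the nucleolus 4 fell and none rose (2.90% lower), close to the 2.30% over all genes, with a median of -0.06; at an unadjusted p under 0.05 there were 22 lower and 2 higher, and DESeq2 and limma-voom called 3 and 4 lower. gtpbp4, a GTPase of the large subunit's assembly, had 213, 189 and 192 CPM against 165, 149 and 156 CPM (log2 fold change -0.34, adjusted p = 0.0127). nsa2, another large-subunit assembly factor, had 303, 280.3 and 244 CPM against 226, 213 and 190.1 CPM (log2 fold change -0.40, adjusted p = 0.0135). The calls of gtpbp4 and nop53 were lost without wild-type replicate 1 (adjusted p = 0.0601 and 0.116), and those of nsa2 and wdr3 without mutant-labelled replicate 3 (adjusted p = 0.0818 and 0.187). ddx21, a nucleolar helicase, had 110.1, 102 and 97.7 CPM against 93.8, 76.6 and 87.1 CPM (log2 fold change -0.27, adjusted p = 0.0786) and was named outside the rule. Of 66 translation factors 1 rose and 2 fell (1.52% and 3.03%), near the 1.63% and 2.30% over all genes. None of these calls was kept without each library. eif4e1c, a cap-binding protein, and eef1db, on the chromosome of mycn, had adjusted p of 0.120 and 0.141 without wild-type replicate 2. eif3f had 0.139 without mutant-labelled replicate 3.

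Further lists with a part in growth gave no call. In 13 lists, of growth and of other kinds, no tested member was called by edgeR, while DESeq2 called 1 and limma-voom none. They hold 445 list entries, with an unadjusted p under 0.05 for 27 upward and 18 downward entries. Neuronal genes, described below, gave 13 of the upward entries, none of the downward entries and the DESeq2 call. Of the growth lists, the 74 mitochondrial ribosomal proteins had a median of -0.04, with 0 higher and 3 lower at that threshold. The 28 genes of RNA polymerases I and III had -0.06 (0 higher, 1 lower), and 21 cytosolic aminoacyl-tRNA synthetases had -0.05 (1 and 1). The 47 DNA replication genes had -0.07 (0 and 4), 39 proteasome subunits -0.07 (1 and 3) and 14 polyamine synthesis genes 0.05 (2 and 0). Of 47 mitotic genes 2 fell and none rose (4.26% lower, beside 2.30% over all genes), with 7 lower and none higher at an unadjusted p under 0.05 and 1 lower in DESeq2 and in limma-voom. These were cdca8 and aurkb, both of the chromosomal passenger complex, at -0.37 and -0.31; without wild-type replicate 1 or 2 respectively their adjusted p was 0.0822 and 0.177. Signs leaned down here too, with 43 of 47 negative and a median of -0.10.

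Nucleotide synthesis held 2 higher and 4 lower genes of 40 (5% and 10%, beside 1.63% and 2.30% over all genes). The calls of mthfd2 (log2 fold change 0.265) and impdh1b (-0.248) were lost on leaving out any single library. Both entries of rrm2, uncertain as separate genes, are also among the calls. mthfd1l, a mitochondrial enzyme of the folate cycle, fell from 81.7, 74.4 and 59.1 CPM to 54.9, 33.8 and 38.9 CPM (log2 fold change -0.75 ± 0.14, adjusted p = 0.00379). It lies on the chromosome of mycn. uck2b, a uridine kinase, fell from 61.4, 55.02 and 52.98 CPM to 41.5, 45.9 and 37.5 CPM (log2 fold change -0.44, adjusted p = 0.00565). Both entries named rrm2, the small subunit of ribonucleotide reductase, were called, in opposite directions. ENSDARG00000020711 had 58.2, 54.6 and 57.2 CPM against 20.4, 24.98 and 22.7 CPM (log2 fold change -1.32 ± 0.08, adjusted p = 1.40e-07). ENSDARG00000078069 had 21.5, 17.95 and 17.2 CPM against 44.4, 54.98 and 50.4 CPM (log2 fold change 1.40 ± 0.10, adjusted p = 4.13e-07). Their sum was level, at 75.6 ± 3.70 CPM in wild type and 72.6 ± 7.60 in the mutant-labelled group (SD, n = 3), and the entries are therefore uncertain as separate genes.

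Stress responses were mixed. bbc3, the pro-apoptotic Puma gene, fell from 21.9, 21.2 and 23.1 CPM to 15.5, 17.5 and 13.7 CPM (log2 fold change -0.50, adjusted p = 0.00819). Among 42 chaperones 5 rose and none fell (11.9% higher) beside a list median of -0.01, with unadjusted p under 0.05 for 8 higher and 7 lower genes; DESeq2 called 4 higher and 1 lower, and limma-voom 5 higher. hsp90aa1.1, the Hsp90 of muscle fibres, had 40.8, 39.6 and 36.4 CPM against 61.97, 58.9 and 56.9 CPM (log2 fold change 0.61 ± 0.07, adjusted p = 8.79e-05), and unc45b, which folds myosin with it, had 22.6, 22.2 and 22.2 CPM against 33.6, 27.6 and 31.9 CPM (log2 fold change 0.47, adjusted p = 0.00464). hsp90aa1.1 and ahsa1a, an Hsp90 activator whose call was lost without wild-type replicate 2 (adjusted p = 0.0873), lie on the chromosome of mycn. Of 38 genes of the unfolded protein and amino acid responses 1 rose and 4 fell (2.63% and 10.5%, beside 1.63% and 2.30% over all genes). nupr1b, a stress-responsive nuclear protein, fell from 128, 120.4 and 127 CPM to 89.97, 83.9 and 91.4 CPM (log2 fold change -0.50 ± 0.07, adjusted p = 0.000244), and ero1a, the disulfide-forming oxidase, fell by 0.75 with an adjusted p of 0.0503 without wild-type replicate 1.

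Detoxification genes held many calls in both directions. Of 74 tested cytochrome P450 genes 6 rose and 15 fell (8.11% and 20.3%), and the median was -0.06. cyp3a65, a CYP3A enzyme of zebrafish gut and liver named outside the rule, had 57.3, 77.4 and 55.4 CPM against 39.5, 31.9 and 29.7 CPM (log2 fold change -0.91 ± 0.12, adjusted p = 0.000185). cyp2k16 had 45.8, 48.5 and 42.5 CPM against 26.7, 27.7 and 24.4 CPM (log2 fold change -0.79 ± 0.08, adjusted p = 1.38e-05). The entries named cyp2y3 both fell: ENSDARG00000101423 from 155, 164 and 151 CPM to 112, 97.5 and 99.98 CPM and ENSDARG00000068493 from 14.3, 21.03 and 11.7 CPM to 4.80, 4.50 and 3.70 CPM, and their sum went from 173 ± 11.7 to 107 ± 7.88 CPM (SD, n = 3). cyp2p9 rose most, from 4.69, 3.98 and 2.83 CPM to 17.7, 19.8 and 21.5 CPM (log2 fold change 2.35 ± 0.15, adjusted p = 1.40e-07). Of the 6 higher genes, cyp2ad6, cyp2ad3, cyp2p9 and cyp2j20 lie on the chromosome of mycn. They stand at -143, -140, -136 and -134 in the order of tested genes counted from mycn. The lower genes cyp2n13 and cyp46a1.1 lie on that chromosome too. The cyp2ad6 call was lost without mutant-labelled replicate 1 (adjusted p = 0.0819) and that of cyp2n13 without wild-type replicate 1 (adjusted p = 0.0533). Without wild-type replicate 2 the P450 list held 8 lower genes in place of 15.

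Glutathione transferases fell without a rise: 6 of 21 were lower (28.6%), and none was higher at an unadjusted p under 0.05, in DESeq2 or in limma-voom. gsta.1 had 306, 265 and 257 CPM in the wild-type libraries and 159, 152 and 125 CPM in the mutant-labelled libraries (log2 fold change -0.92 ± 0.09, adjusted p = 9.87e-06), and gstp2 had 79.2, 68.2 and 64.8 CPM against 49.2, 48.8 and 41.98 CPM (log2 fold change -0.60 ± 0.09, adjusted p = 0.000478). Both genes were lower in each mutant-labelled library than in any wild-type library. Without wild-type replicate 1 the list held 3 lower genes. tmem176l.2, of a family of membrane channels, fell from 16.5, 12.1 and 12.98 CPM to 4.74, 3.98 and 3.77 CPM (log2 fold change -1.73 ± 0.15, adjusted p = 2.52e-06), and the other 5 tested members of that family were not called.

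Fuel metabolism changed in single steps. gck, glucokinase, rose from 5.55, 4.81 and 6.58 CPM to 11.5, 15.6 and 12.7 CPM (log2 fold change 1.23 ± 0.15, adjusted p = 8.79e-05). fbp2, a fructose-bisphosphatase of gluconeogenesis, fell from 114, 96.6 and 106 CPM to 54.2, 48.8 and 45.7 CPM (log2 fold change -1.09 ± 0.08, adjusted p = 5.19e-07), and pcxb, pyruvate carboxylase, fell from 79.3, 91.6 and 82.6 CPM to 58.5, 45.7 and 46.96 CPM (log2 fold change -0.74 ± 0.09, adjusted p = 8.68e-05). aldoca, an aldolase, fell from 15.5, 17.6 and 17.6 CPM to 11.2, 10.6 and 10.8 CPM (log2 fold change -0.63, adjusted p = 0.00166). The genotypes were apart in each of these, which for gck was a condition of its naming. The glycolysis and gluconeogenesis list of 43 held 3 higher and 3 lower genes (6.98% each, beside 1.63% and 2.30% over all genes). slc2a1a, a glucose transporter outside that list, rose from 4.34, 4.55 and 5.78 CPM to 8.43, 9.65 and 8.48 CPM (log2 fold change 0.86, adjusted p = 0.00253). Of 88 nuclear genes of the respiratory chain 2 fell (2.27%, beside 2.30% over all genes; list median -0.01), cox8b (log2 fold change -1.01 ± 0.11, adjusted p = 3.55e-05) and cox6b1 (log2 fold change -0.46 ± 0.08, adjusted p = 0.0019), both subunits of cytochrome oxidase. In cholesterol synthesis 4 of 33 fell (12.1%), and acat2, a thiolase on the chromosome of mycn, kept its call (40.7, 41.9 and 33.4 CPM against 25.8, 19.7 and 20.5 CPM, log2 fold change -0.81, adjusted p = 0.000208). dhcr7 and cyp51 had adjusted p of 0.0831 and 0.257 without wild-type replicate 2.

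**Figure D3:**
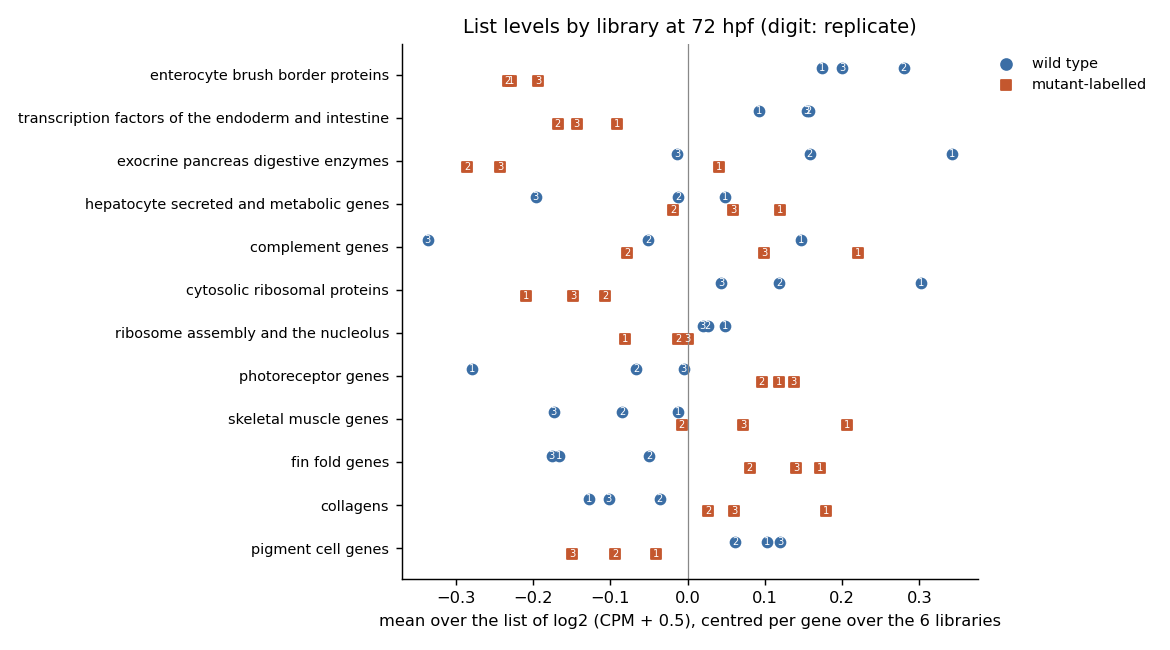
Mean level of 12 gene lists in each library at 72 hpf, as log2 CPM centred on each gene's mean over the 6 libraries, with the replicate number inside each point. The genotypes are apart for brush border (0.174 to 0.280 against -0.233 to -0.193) and ribosomal proteins, and overlap for exocrine pancreas, hepatocyte and complement genes. They are also apart for some lists with no called gene, which are not drawn.

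Lists of several tissues outside the gut held genes that rose. Of 60 tested photoreceptor genes 11 rose and none fell (18.3% against 1.63% of all genes), with a median of 0.23; at an unadjusted p under 0.05 there were 30 higher and 1 lower, DESeq2 called 13 higher and limma-voom 11, and neither called any lower. opn1mw2, a green cone opsin, had 23.5, 16.5 and 18.8 CPM in the wild-type libraries and 35.8, 29.7 and 36.6 CPM in the mutant-labelled libraries (log2 fold change 0.79 ± 0.12, adjusted p = 0.00052). grk7a, the cone opsin kinase, had 115, 150.4 and 144 CPM against 190.5, 201 and 189 CPM (log2 fold change 0.50 ± 0.09, adjusted p = 0.00227), and pde6c, the cone phosphodiesterase, had 281, 335 and 325 CPM against 399, 464 and 411 CPM (log2 fold change 0.44 ± 0.09, adjusted p = 0.00603). rbp3, the retinoid carrier between photoreceptors and pigment epithelium, had 173, 193 and 202 CPM against 272, 249 and 232 CPM (log2 fold change 0.41, adjusted p = 0.00608). In each of these 4 genes the lowest mutant-labelled library was above the highest wild-type library, which for opn1mw2 was a condition of its naming. Wild-type replicate 1 had the lowest photoreceptor level of all (-0.279), and 5 higher genes were left without it, against 7 without mutant-labelled replicate 2. The model of all 12 libraries called no photoreceptor gene. None of 58 lens genes was called by edgeR, DESeq2 or limma-voom (median 0.02; unadjusted p under 0.05 for 3 higher and 0 lower). Of 53 neuronal genes none was called by edgeR or limma-voom and 1 was higher in DESeq2; the median was 0.10, 47 were positive, and the unadjusted p was under 0.05 for 13 higher and 0 lower.

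Muscle and matrix lists also held genes that rose. Of 50 skeletal muscle genes 10 rose and 1 fell (20% and 2%), and the median was 0.22. myhz1.3, a fast myosin heavy chain, had 748, 885 and 772 CPM in the wild-type libraries and 1414, 1141 and 1303 CPM in the mutant-labelled libraries (log2 fold change 0.68 ± 0.10, adjusted p = 0.000341); its neighbours in the genome are near copies, so reads may be shared among them. myom1a, a protein of the sarcomere's M band, had 170.4, 183 and 167 CPM against 267, 212 and 239 CPM (log2 fold change 0.46, adjusted p = 0.00315), and casq1a, the calcium store protein, had 139, 139 and 128 CPM against 206, 159 and 179.5 CPM (log2 fold change 0.42, adjusted p = 0.00744). Mutant-labelled replicate 1 was the highest library in all 3 genes and in the list as a whole (0.206). Without mutant-labelled replicate 1 or wild-type replicate 2 the list held 5 higher genes, without wild-type replicate 3 it held 6, and DESeq2 and limma-voom called 16 and 13 higher. No member was called in the model of all 12 libraries. The lower entry was a copy of actc1a (ENSDARG00000076126, log2 fold change -1.25 ± 0.17, adjusted p = 0.000207), and the sum over both copies was 179 ± 13.3 CPM in wild type and 167 ± 26.3 in the mutant-labelled group (SD, n = 3).

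The fin fold, a thin skin flap stiffened by actinotrichia fibres, gave 4 higher genes of 14 (28.6%) and a median of 0.27, with unadjusted p under 0.05 for 11 higher and none lower genes and 4 higher in DESeq2 and in limma-voom. The actinodin genes and1 and and2, which encode those fibres' proteins, had 84.1, 99.7 and 90.6 CPM against 157, 128 and 154 CPM (log2 fold change 0.68 ± 0.09, adjusted p = 0.000128) and 186, 220 and 202 CPM against 329, 294 and 304 CPM (log2 fold change 0.61 ± 0.08, adjusted p = 0.000161). and3 had 0.39, lost without mutant-labelled replicate 3 (adjusted p = 0.0673), and hapln1a, a hyaluronan link protein, had 0.32, lost without wild-type replicate 2 (adjusted p = 0.0935). Of 56 collagens 6 rose and none fell (10.7% higher), with unadjusted p under 0.05 for 26 higher and none lower genes. col6a3 had 172, 177 and 174 CPM against 220.4, 218 and 219.8 CPM (log2 fold change 0.33, adjusted p = 0.00631), with replicates of a genotype almost equal. col17a1a, of the anchor between epidermis and basement membrane, had 326, 373 and 318 CPM against 504, 430.3 and 433 CPM (log2 fold change 0.43, adjusted p = 0.00755), and col12a1b, on the chromosome of mycn, had 68.3, 71.6 and 68.9 CPM against 92.02, 88.97 and 86.9 CPM (log2 fold change 0.36, adjusted p = 0.0038). DESeq2 called 10 and limma-voom 8 collagens higher, and 3 were left without wild-type replicate 1 or 3. In the model of all 12 libraries no collagen was called. None of the 32 cartilage and bone genes was called by edgeR, DESeq2 or limma-voom (median 0.08; unadjusted p under 0.05 for 2 higher and 2 lower).

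Skin lists held genes that fell and genes that rose. Of 37 keratin and epidermal genes 7 fell and none rose (18.9% lower), while the median was -0.05 and 15 members had positive log2 fold changes; at an unadjusted p under 0.05 there were 8 lower and 3 higher, DESeq2 called 7 lower and 1 higher, and limma-voom 7 lower. krt92 had 328, 365 and 298 CPM against 212, 239.9 and 199.7 CPM (log2 fold change -0.60, adjusted p = 0.000499), krt97 had 152, 169.6 and 146 CPM against 97.7, 107 and 87.1 CPM (log2 fold change -0.68 ± 0.08, adjusted p = 9.18e-05), and krt93 had 1.45, 2.12 and 1.97 CPM against 0.234, 0.409 and 0.471 CPM (log2 fold change -2.30 ± 0.37, adjusted p = 0.00132). All 3 were lower in each mutant-labelled library, where krt93 rested on few counts (3 counts being worth 0.175 to 0.202 CPM). krt5, of basal keratinocytes, had 0.30 and was not called (adjusted p = 0.0858). Ionocytes, the ion-pumping cells of the skin, gave 4 higher and 1 lower gene of 25 (16% and 4%). The ammonia channel genes rhcga and rhcgl1 had 28.9, 40.2 and 46.3 CPM against 58.9, 66.3 and 73.1 CPM (log2 fold change 0.78 ± 0.12, adjusted p = 0.00111) and 8.10, 10.3 and 10.3 CPM against 13.6, 17.1 and 24.4 CPM (log2 fold change 0.94 ± 0.17, adjusted p = 0.00339), while atp1a1a.4, a sodium pump subunit, had 474, 499 and 462 CPM against 355, 349 and 317 CPM (log2 fold change -0.49 ± 0.08, adjusted p = 0.000847). Without wild-type replicate 3 or mutant-labelled replicate 2 the list held 2 higher genes.

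Of 33 pigment cell genes 3 fell and none rose (9.09% lower), with 9 lower and none higher at an unadjusted p under 0.05 and 3 lower in DESeq2 and in limma-voom. gpnmb, a melanosome protein, had 89.1, 95.4 and 104 CPM against 62.8, 59.96 and 62.2 CPM (log2 fold change -0.64 ± 0.07, adjusted p = 4.00e-05). pnp4a, a purine enzyme of iridophores, had 22.4, 25.1 and 22.8 CPM against 14.9, 13.7 and 14.3 CPM (log2 fold change -0.71, adjusted p = 0.000199), and bco1, a carotenoid-cleaving enzyme, had 16.3, 17.95 and 16.7 CPM against 8.96, 12.1 and 12.4 CPM (log2 fold change -0.61, adjusted p = 0.0078). The libraries of the genotypes were apart in all 3. Of 25 pronephros genes 4 fell and 1 rose (16% and 4%). pdzk1, a scaffold of transporters in kidney and gut, had 31.99, 36.4 and 35.2 CPM against 22.96, 25.4 and 23.7 CPM (log2 fold change -0.52, adjusted p = 0.00127); hnf1ba and cubn are counted here and in the gut lists. Without wild-type replicate 2 or mutant-labelled replicate 3 the pronephros list held 1 lower gene, and without wild-type replicate 3 it held 2.

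The largest changes among well-measured genes crossed these groups. After cyp2p9 the largest rise under the rule for named genes was crp2, a C-reactive protein gene of the acute phase, with 3.53, 2.12 and 2.28 CPM against 5.86, 5.97 and 9.62 CPM (log2 fold change 1.42 ± 0.23, adjusted p = 0.00149). ankrd1b, a muscle ankyrin repeat gene, rose from 9.14, 9.17 and 8.74 CPM to 13.6, 15.8 and 18.8 CPM (log2 fold change 0.83, adjusted p = 0.000728), and cep57l1, of the centrosome and on the chromosome of mycn, from 7.98, 6.73 and 7.57 CPM to 13.5, 11.6 and 15.6 CPM (log2 fold change 0.86, adjusted p = 0.000849). Among the falls, ociad2, a mitochondrial protein gene on the same chromosome, went from 24.5, 28.9 and 27.6 CPM to 10.1, 10 and 11.3 CPM (log2 fold change -1.37 ± 0.10, adjusted p = 5.14e-07), scpp9, of the secretory calcium-binding phosphoproteins, from 6.25, 8.66 and 7.81 CPM to 2.11, 2.22 and 4.58 CPM (log2 fold change -1.37, adjusted p = 0.00217), and epdl2, an ependymin-like gene, from 39.6, 44.7 and 36.4 CPM to 12.2, 18.3 and 20.6 CPM (log2 fold change -1.24, adjusted p = 2.34e-05). The rule that picked these genes required that the genotypes did not overlap. No called gene had 0 counts in all 3 libraries of a genotype.

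Called genes were denser on the chromosome that carries mycn. By gene order in RefSeq's assembly GRCz12tu, which is not the files' build and matched 82.5% of tested genes, that chromosome held 698 tested genes, of which 72 changed (10.3%), 32 higher and 40 lower. The other chromosomes together held 593 changed of 15947 (3.72%), and singly ranged from 2.37% to 5.05%. Within 50 tested genes on either side of mycn 10 of 100 changed (10%), and beyond that 61 of 597 (10.2%). The share was uneven along the chromosome: in blocks of 100 tested genes counted from mycn the share was highest from -200 to -101, with 19 called, and lowest from -400 to -301, with 2 called, where negative numbers lie on 1 side of mycn. Sequence that differs between the mutant line and AB was not measured, and its part in these calls was not tested.

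**Figure D4:**
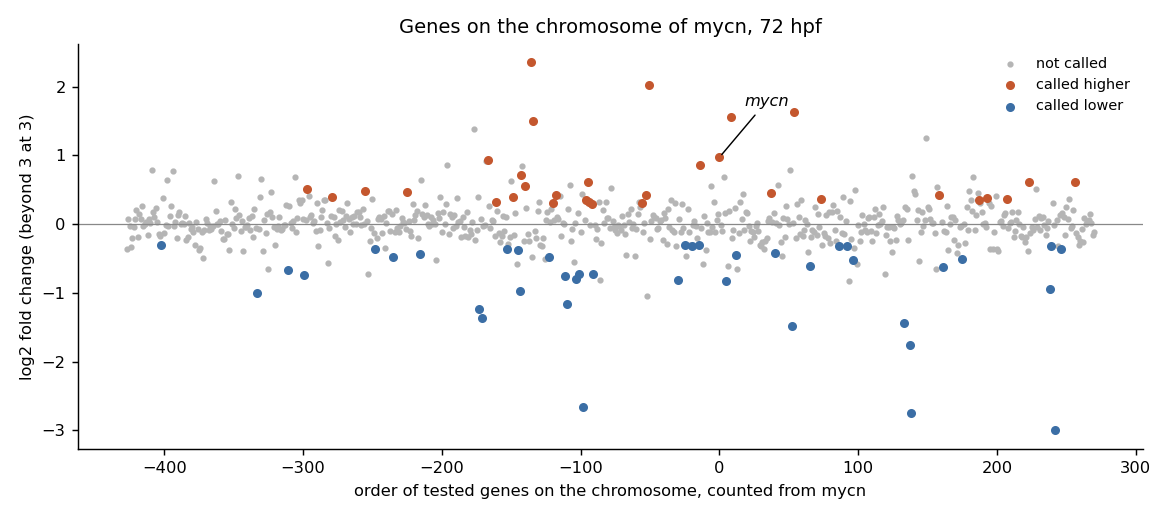
Log2 fold change of the 698 matched genes on the chromosome of mycn against their order counted from mycn, with called genes coloured and values past 3 drawn at 3. The 72 called genes, 32 higher and 40 lower, lie on both sides of mycn and are few at the far left, where 2 of the 100 genes from -400 to -301 were called.

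At 48 hpf the same comparison gave 74 called genes of 19447 (0.381%, with 0.0771% higher and 0.303% lower), with a wider spread between replicates (biological coefficients of variation of 0.185 in wild type and 0.132 in the mutant-labelled group). Of the 793 genes called at 72 hpf, 677 were tested at 48 hpf and 456 of these had the same sign there (67.4%), against 55.4% of the 18668 genes tested at both ages. The comparisons share no library, and the overlap is given without a test. mycn itself was higher at both ages, at 64.9 ± 13.1 against 195 ± 22.1 CPM at 48 hpf (SD, n = 3; log2 fold change 1.59, adjusted p = 0.00308), and the difference between ages was not called (adjusted p = 0.192).

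Besides mycn, 8 genes were called at both ages, and 5 of them had the same sign. gpnmb, the melanosome gene, was lower by 0.64 and 1.04 on the log2 scale at 72 and 48 hpf. adh8b, an alcohol dehydrogenase, was at -0.76 and -1.08, and sccpdhb, a saccharopine dehydrogenase-like gene, at -0.42 and -0.73. cdnf, a neurotrophic factor of the endoplasmic reticulum, was at 0.56 and 0.64, and CU914776.1 at 0.67 and 1.69. The other 3 turned: cyp2ad3, a cytochrome P450, was at 0.55 and -0.74, tnfaip2a, a gene induced by tumour necrosis factor, at 0.46 and -0.83, and si:ch211-113d11.5 at 1.03 and -3.99. For these 3 the difference between ages was also called, with adjusted p from edgeR of 0.000687, 0.00281 and 0.00239. Over all genes tested it was called for 0.470% (0.285% higher and 0.185% lower at 72 hpf). The 3 genes were picked for opposite calls in the same libraries, so this is not separate support for a turn. In wild type at 48 hpf, si:ch211-113d11.5 varied widely between replicates (69.4 ± 46.8 CPM, SD, n = 3). At 72 hpf the calls of sccpdhb, tnfaip2a and cdnf did not hold without each library, as they were kept in 3, 2 and 2 of the 6 reduced sets. sccpdhb, cyp2ad3 and tnfaip2a lie on the chromosome of mycn, where called genes were denser.

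List medians at the earlier age are given as values, and their differences were not tested. Brush border proteins had a median of -0.33 over the 27 members tested at 48 hpf, and ribosomal proteins had -0.35 over 84, beside -0.49 and -0.32 at 72 hpf. Pigment genes stood at -0.34 and -0.17 at 48 and 72 hpf. The medians of hepatocyte genes (-0.24 and 0.17), complement genes (-0.27 and 0.23) and mitotic genes (0.23 and -0.10) had opposite signs at the 2 ages. vil1 was at 2.72 CPM in wild type and 1.39 in the mutant-labelled group at 48 hpf, and cdx1b at 2.47 and 1.06, and neither was called there (adjusted p = 0.457 and 0.174). ddx21, the nucleolar helicase named outside the rule, was called at 48 hpf (157 against 82.0 CPM, log2 fold change -0.94, adjusted p = 0.0110) and not at 72 hpf. A call at 1 age alone does not show a difference between ages. Of 138 ribosome assembly genes tested at 48 hpf 2 were called lower and none higher, beside 0.303% lower over all genes at that age.

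**Figure D5:**
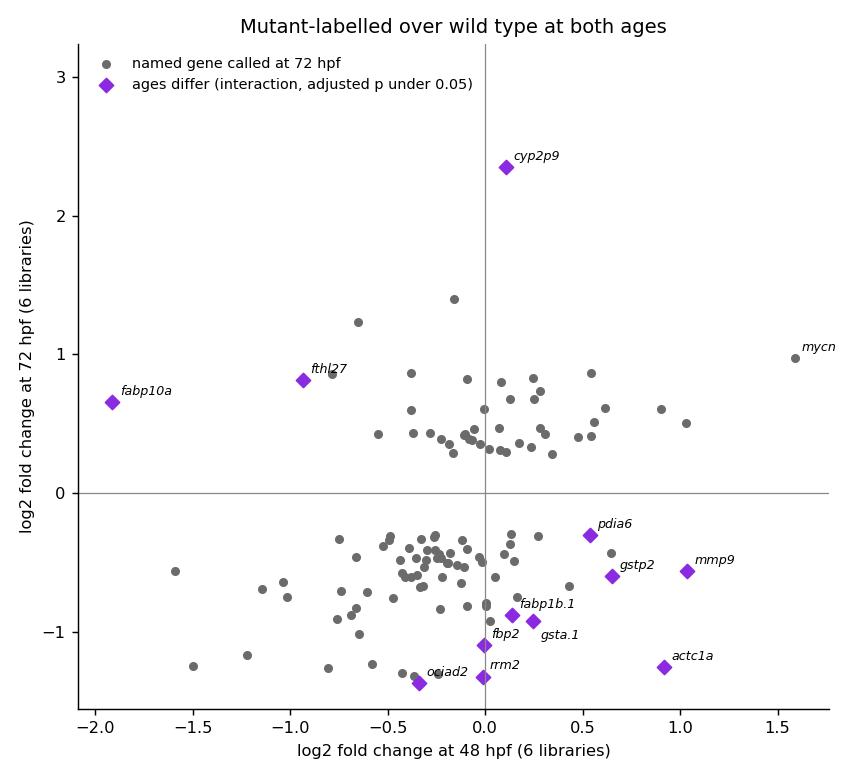
Log2 fold change at 72 hpf against that at 48 hpf for the 120 rule-named genes called at 72 hpf and tested at 48 hpf, from 6 libraries each. Diamonds mark the 12 genes whose difference between ages was called, among them fabp10a (0.66 at 72 hpf and -1.91 at 48 hpf). The genes drawn were picked by their calls at 72 hpf, and over all genes tested the difference was called for 0.470%.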

How the data were processed

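The values deposited by the authors are raw read counts for Ensembl genes, each with a symbol. STAR, featureCounts, DESeq2 and the build GRCz11 appear in the submitters' processing notes without versions or roles. Strand use is unknown here, so overlapping and antisense genes cannot be separated, and genes with a near-identical copy (603 symbols stand on more than 1 gene) are uncertain. Nothing in the labels says that libraries of a group came from separate clutches or pools. P-values then rest on the spread of these samples, possibly technical.

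Counts of the 6 libraries of 72 hpf were filtered with filterByExpr at a minimum count of 10, scaled by TMM and tested in R 4.3.3 with edgeR 4.0.16 (glmQLFit, glmQLFTest). Adjusted p is Benjamini-Hochberg over all 20182 tested genes, and SE is the size of the log2 fold change over the root of its F statistic. The 48 hpf libraries were fitted alone in the same way, and the difference between ages is the interaction in a model of all 12 libraries. Alternatives were DESeq2 1.42.0, limma-voom (limma 3.58.1), other scalings, no filter, all 12 libraries, a replicate block and leaving out each library. The 56 gene lists held 2352 symbols, of which 2269 matched a gene and 2147 were tested, with some genes on more than 1 list. Members, lists and rules were chosen with earlier results of these data known, so lists are described by counts and medians and given no test. Results that need items withheld from this work are not reported here.

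The rule for naming took mycn, the 15 strongest rises and the 15 strongest falls (called, mean log2 CPM not under 2, genotypes not overlapping, no clone names), the 10 smallest p, and up to 4 called members of each list, or the member of smallest p where none was called. Of these 159 genes 146 were called. In a run on simulated counts of 19988 genes with these library sizes, the test found 44 of 67 genes with a planted 1.5-fold change, 56 of 67 with 2-fold and 63 of 66 with 4-fold, and 12 of its 175 calls were false. Replicates of a group were not identical and differed by more than sampling noise, with a chi-square of 4.35 to 8.70 per degree of freedom. A count of 3 was worth 0.174 to 0.202 CPM in a library.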

Additional observations from a re-analysis of the deposited data

Results flagged for a closer look

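For 12 of the 120 rule-named genes called at 72 hpf and tested at 48 hpf the effect of the genotype label differed between the ages. This was by an adjusted p under 0.05 for the interaction in edgeR over all 12 libraries. Over all genes tested it was called for 0.470%. The named genes were picked by calls at 72 hpf in libraries that also enter the interaction, so their share is not separate support for a difference. The value given is the log2 fold change at 72 hpf minus that at 48 hpf, from that model. The gap was positive for fabp10a, the hepatocyte fatty acid carrier (2.60), cyp2p9 (2.27) and a copy of the ferritin gene fthl27 (1.76). It was negative for a copy of the actin gene actc1a (-2.16), mmp9, a metalloprotease of neutrophils and macrophages (-1.58), an entry of rrm2 (-1.30), the glutathione transferase genes gstp2 (-1.24) and gsta.1 (-1.16), fbp2 (-1.08), ociad2 (-1.02), the fatty acid carrier fabp1b.1 (-1.01) and pdia6, a disulfide isomerase (-0.83). fabp10a stood at 2.31 CPM in wild type and 0.617 in the mutant-labelled group at 48 hpf, and fabp1b.1 at 877 and 966. actc1a, fthl27 and rrm2 share their symbols with a second copy and are uncertain. cyp2p9, ociad2 and pdia6 lie on the chromosome of mycn. At 72 hpf the calls of mmp9 and pdia6 were lost without wild-type replicates 1 and 2 (adjusted p = 0.136 and 0.156). With library totals in place of TMM the directions of these 12 differences were the same.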

How the results depend on the processing

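The count of changed genes, 793 (329 higher, 464 lower), was 789 with DESeq2's size factors in edgeR, 834 with library totals, 1170 without a filter, 726 with DESeq2 and 775 with limma-voom. A single model of all 12 libraries, which shares its spread with the more variable 48 hpf groups, called 117 genes (28 higher, 89 lower), all among the 793. It called 9 brush border and 2 ribosomal protein genes lower. No gene of the photoreceptor, skeletal muscle, collagen or exocrine pancreas lists was called in that model. Of its 117 calls 76 had the same sign at 48 hpf (65.0%), beside 456 of 677 (67.4%) in the main fit. Leaving out a library gave 437 to 684 changed genes, 169 to 302 higher and 268 to 395 lower. With the replicate number as a block 858 genes were called (360 higher, 498 lower), and 752 of these were also called without it. Deviations of same-numbered libraries correlated at -0.0209, 0.0206 and 0.00536, and the libraries did not each correlate best with their own number, so the numbers do not show a pairing. Of the 146 named genes called, 136 kept their call in DESeq2, 141 in limma-voom, 144 under the block, 47 in the model of all 12 libraries and 97 without each of the 6 libraries in turn. None of the 146 called named genes changed sign under the settings run, while 3 that were not called did. The medians of 19 lists changed sign in at least 1 setting, each of them no larger than 0.0965 in size, and the median over all tested genes went from 0.0019 to -0.0026 with library totals. Counts turned for translation factors, from 1 higher and 2 lower to 1 higher and 0 lower without wild-type replicate 1, and for neutrophil and macrophage genes, from 0 higher and 2 lower to 1 higher and 0 lower without mutant-labelled replicate 3. Low counts limit the 48 hpf comparison, where 27 brush border genes passed the filter against 43 at 72 hpf.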
